A study of Mus musculus with 4 samples.

Results

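The 34 genes described here encode proteins that copy the genome and divide the cell, and they were taken by symbol from the 31053 genes of the deposited feature table. All 34 were found. They form 3 sets by the phase of the cell cycle in which their products are known to act: 14 genes of DNA replication (the S phase genes), 16 genes of mitosis (the mitotic genes), and 4 genes, Tubb5, Stmn1, Hmgb2 and H2afz, whose RNA is abundant in dividing cells but also present in resting ones. They were read in tumour cells, T cell subsets, NK cells and the other cell types of mouse lungs that carried tumours.

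A cell that commits to division first loads the MCM helicase onto replication origins, then switches on cyclin E and the enzymes that make deoxynucleotides, and copies its DNA in S phase. After that, cyclin A and cyclin B switch on the kinase Cdk1, the Aurora and Polo-like kinases build the spindle, and Cdc20 and Ube2c bring the cyclins to destruction so that the cell can leave mitosis. RNA of most of these genes is scarce in resting cells, so their level in a population depends both on how many cells divide and on how much of each RNA a dividing cell holds. In tumours these genes are used as a readout of growth, and in T cells of the expansion of clones that met their antigen.

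The study used KP cells, a mouse non-small cell lung cancer model that lacks p53, which were injected into a vein of B6 mice and formed tumours in the lung. Asf1a encodes a histone chaperone, and the injected cells either had an intact gene (WT) or carried its knockout (KO), while the mice were B6 in all groups. The mice received isotype IgG or the anti-PD-1 antibody 29F.1A12, which blocks an inhibitory receptor of T cells, given over 1 week in 3 doses of 200 µg for each mouse. Whole lungs were digested, live cells were sorted by DAPI and 10x 3′ v2 libraries were made, so tumour, normal lung and blood-borne cells are mixed. There were 4 groups with 1 library each, and values given as a series of 4 list the WT libraries first (WT IgG, then WT anti-PD-1) and the KO libraries after them (KO IgG, then KO anti-PD-1). The labels do not say how many mice entered a library, nor whether the knockout line is 1 clone.

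The libraries held 6074 to 6683 cells and 16078095 to 22506737 unique molecular identifiers (UMIs, each 1 captured RNA molecule), and 5603 to 6184 cells per library were kept. The median cell of the KO libraries was shallower, at 1221.5 and 1339 UMIs against 2026 and 1880. Cell types were named from markers after clustering without the 34 genes, and a name such as tumour cells or CD8 T cells below means cells alike to that type by these markers. Tumour cells numbered 112, 107, 218 and 134, expressed the keratin gene Krt8 at 2514 to 3857 counts per 1000000 UMIs of the class (CPM) and had 0 to 9 UMIs of Epcam, a defining epithelial marker. Another epithelial sub-cluster of 40 cells, with Lgals2, Krt18, Rbp4 and Krt8 among its leading genes, got no name and was left out of this class. T cells held 291 to 496 CPM of Cd3e and NK cells 305 to 387 CPM of Ncr1. Asf1a stood at 34.7, 28.6, 9.87 and 7.74 CPM in tumour cells of the 4 libraries, lower in both KO libraries. The sources used here do not give the edited part of the gene, and 3′ reads may lie outside it. With 1 library per group there is no spread between mice, every difference is one between single libraries, and the 95% intervals cover counting error only. Fewer dividing cells and less of these RNAs per dividing cell cannot be told apart in the summed values.

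Promoters are shown for the 2 mitotic and the 2 S phase genes with the most UMIs over all cells, because genes of the 2 phases are known to be regulated through different short elements. Mitotic genes are known for the cell cycle homology region (CHR, searched as TTTGAA and, in its common variant, as TTCGAA) together with the CCAAT box (CCAAT), and replication genes for E2F sites, which were searched in 4 forms. The first form was TTCCCGC and the next was TTGGCGC, and the other forms were TTCGCGC and, with the inner letters changed, TTGCCGC. Each window holds 250 bases before and 50 bases after the start of the gene in RefSeq, build GRCm38.p6, written 5′ to 3′ on the strand of the gene. Matches on either strand are in capitals, so CCAAT also appears as ATTGG, and no match of different motifs overlapped in the windows printed.
Top2a (mitotic), chr11:99024140-99024439, minus strand: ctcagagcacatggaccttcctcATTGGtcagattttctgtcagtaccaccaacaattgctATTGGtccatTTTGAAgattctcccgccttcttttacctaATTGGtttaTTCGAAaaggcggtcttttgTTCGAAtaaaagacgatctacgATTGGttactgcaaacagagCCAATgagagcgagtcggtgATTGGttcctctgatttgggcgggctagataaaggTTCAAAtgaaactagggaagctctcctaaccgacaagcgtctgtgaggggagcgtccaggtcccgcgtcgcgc
Cenpa (mitotic), chr5:30666636-30666935, plus strand: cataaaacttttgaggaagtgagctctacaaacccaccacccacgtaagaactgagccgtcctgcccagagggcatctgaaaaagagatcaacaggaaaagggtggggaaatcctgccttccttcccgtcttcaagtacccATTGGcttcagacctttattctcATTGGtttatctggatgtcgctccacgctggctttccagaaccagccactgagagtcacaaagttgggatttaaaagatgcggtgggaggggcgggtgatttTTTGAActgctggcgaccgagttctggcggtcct
Pcna (S phase), chr2:132253131-132253430, minus strand: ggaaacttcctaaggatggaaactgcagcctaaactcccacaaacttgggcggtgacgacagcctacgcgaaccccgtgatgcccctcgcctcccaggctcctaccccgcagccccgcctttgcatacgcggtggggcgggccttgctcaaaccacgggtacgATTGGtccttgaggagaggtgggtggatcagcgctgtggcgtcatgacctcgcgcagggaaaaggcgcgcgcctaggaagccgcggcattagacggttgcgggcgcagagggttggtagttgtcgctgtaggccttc
Pclaf (S phase), chr9:65890073-65890372, plus strand: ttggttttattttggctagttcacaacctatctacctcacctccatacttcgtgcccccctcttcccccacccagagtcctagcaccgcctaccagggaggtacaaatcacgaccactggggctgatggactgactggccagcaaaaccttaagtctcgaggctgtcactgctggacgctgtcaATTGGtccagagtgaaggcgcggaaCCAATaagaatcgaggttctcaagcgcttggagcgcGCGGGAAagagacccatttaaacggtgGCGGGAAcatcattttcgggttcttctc

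In these windows Top2a held 4 CHR matches and 6 CCAAT matches, and Cenpa held 1 CHR match, 16 bases after the start, and 2 CCAAT matches. Pclaf held 2 E2F matches close to the start and 2 CCAAT matches, and Pcna held 1 CCAAT match only. The same search was made for the 26 of 34 genes with a window in the RefSeq table. A CHR match was found for 10 of 13 mitotic genes (76.9%) and 2 of 11 S phase genes (18.2%), beside 19.2% of all 32851 windows of the table. An E2F match was found for 3 of 13 mitotic genes (23.1%) and 7 of 11 S phase genes (63.6%), beside 9.57% of all windows. CCAAT was found for 11 of 13 mitotic genes (84.6%) and 9 of 11 S phase genes (81.8%), beside 37.4% of all windows. A match describes these letters only, and a window without one says nothing of the factor.

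Across cell types, the mitotic genes stood high in CD8 T cells, tumour cells and the regulatory T cells of the WT libraries, and low in monocytes, migratory dendritic cells and neutrophils. Neutrophils, most of which no longer divide once mature, held 72.6, 96.6, 62.3 and 128 CPM and are given for comparison, although single cells of WT anti-PD-1 and KO anti-PD-1 held 34 and 30 mitotic UMIs. In tumour cells the 16 mitotic genes together reached 618 CPM (583 to 654) in WT IgG and 676 CPM (638 to 717) in WT anti-PD-1. In the KO libraries they reached 835 CPM (802 to 869.7) with IgG and 1231 CPM (1182 to 1282) with the antibody. All T cells together stood at 609, 708, 401 and 707 CPM, so KO IgG was the lowest library there. CD8 T cells, here 1 sub-cluster named from Cd8a, Cd8b1, Nkg7, Ccl5 and Gzmk and not every cell with CD8, reached 1657, 946, 1557 and 1453 CPM, and regulatory T cells, which restrain other T cells, 1893, 1366, 535 and 673 CPM. Naive T cells, which have not met antigen, held 116, 156, 93.2 and 108 CPM, above neutrophils in 3 libraries and below them in KO anti-PD-1. Type 2 dendritic cells held 375, 283, 207 and 483 CPM and NK cells 357, 127, 95.1 and 267 CPM. The plot of levels by cell type shows both sets in the 13 types that had 50 or more cells in every library.

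**Figure D1:**
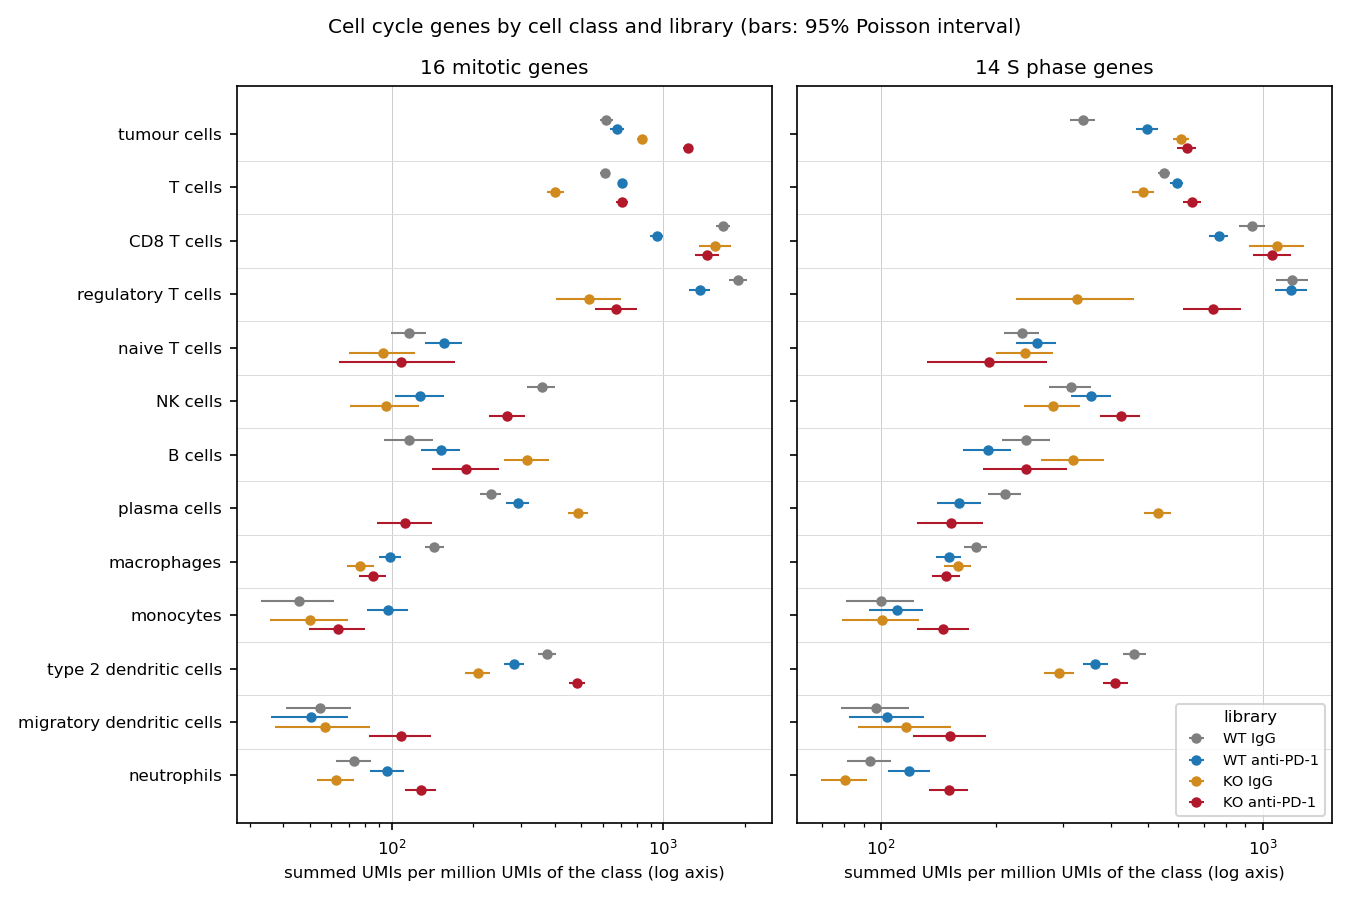
Summed level of the 16 mitotic genes (left) and the 14 S phase genes (right) in 13 cell classes, in CPM on a log axis, 1 point per library with its 95% Poisson interval. CD8 and regulatory T cells and tumour cells lie to the right, and neutrophils, monocytes and migratory dendritic cells to the left.

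The 14 S phase genes, which act before mitosis, also stood high in CD8 T cells and tumour cells. Tumour cells held 337, 498, 612 and 631 CPM, and WT IgG was the lowest library. CD8 T cells held 937, 767, 1093 and 1060 CPM, and regulatory T cells 1193, 1187, 327 and 739 CPM. Neutrophils held 93.2, 119, 80.2 and 150 CPM. The S phase level of naive T cells, 234, 256, 238 and 192 CPM, was higher than their mitotic level in each library.

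The RNA of the mitotic genes sat in few cells. In tumour cells, 44, 43, 97 and 58 cells had none of it, and the 35, 45, 83 and 53 cells with UMIs of at least 2 mitotic genes held 96.7% to 99.0% of all mitotic UMIs. The single tumour cell with the most mitotic UMIs held 30.5% of them in WT IgG (365 of 1195 UMIs), and 17.4%, 9.03% and 18.1% in the other libraries. At least 50% of the mitotic UMIs came from 2, 6, 10 and 4 cells. In T cells, which were 1694, 1932, 998 and 1049 in number, 16, 28, 8 and 20 cells held at least 50%. Summed tumour values therefore rest on a handful of cells, and each of these cells held more UMIs than the median tumour cell of its library, as the plot of single tumour cells shows.

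**Figure D2:**
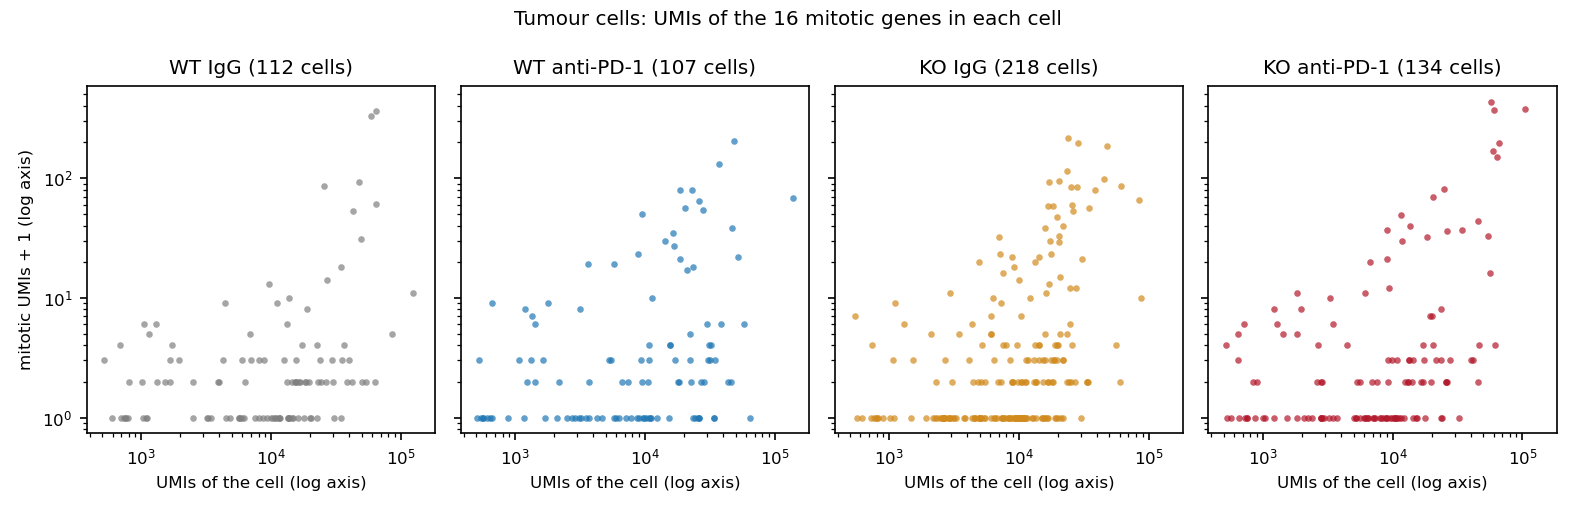
Each point is 1 tumour cell, by its total UMIs (horizontal, log axis) and its UMIs of the 16 mitotic genes plus 1 (vertical, log axis), in 4 panels by library. Most cells lie at the bottom, and 2, 2, 4 and 6 cells of the 4 libraries stand above 100 mitotic UMIs.

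Sub-clusters of the tumour cells, built without the 34 genes and the wider list of cell cycle genes below, placed most of the mitotic UMIs in 1 sub-cluster in 3 of the libraries. This sub-cluster held 2, 12, 26 and 12 cells, or 1.79%, 11.2%, 11.9% and 8.96% of the tumour cells. Its mitotic level was 2278, 3147, 2715 and 3722 CPM, and it gave 703 of 1158 mitotic UMIs in WT anti-PD-1. In the KO libraries it gave 1742 of 2370 with IgG and 1975 of 2387 with the antibody. In WT IgG it gave 89 of 1195, and another sub-cluster of 24 cells gave 973. The median depth of the first sub-cluster was 19530.5, 17446, 22723.5 and 51134.5 UMIs, highest in KO anti-PD-1, and the part of depth in the levels was not tested. Other genes that vary with the listed cell cycle genes were kept in this clustering, so the sub-clusters may not be independent of the mitotic level.

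To count cells rather than RNA, each cell was thinned to 1000 UMIs, which left out 9, 10, 10 and 14 shallower tumour cells. At least 2 mitotic genes were then seen in 6.80% of tumour cells of WT IgG (7 of 103, exact 95% interval 2.78% to 13.5%) and 19.6% of WT anti-PD-1 (19 of 97). The KO shares were 15.4% with IgG (32 of 208) and 15.8% with the antibody (19 of 120). Over 20 repeats of the thinning the median share was 8.74%, 18.0%, 13.9% and 16.7%, with ranges of 4.85% to 12.6%, 12.4% to 20.6%, 11.1% to 16.8% and 12.5% to 20%. WT IgG had the lowest median, and its range overlapped the low end of the other ranges. Without thinning the shares were 31.2%, 42.1%, 38.1% and 39.6%, at median depths of 11680.5, 10183, 9919 and 9089.5 UMIs. In thinned neutrophils the share was 0.0701%, 0.458%, 0.110% and 0.642% (1, 5, 1 and 3 cells). The thinning left out 379, 576, 1749 and 1668 neutrophils with under 1000 UMIs. With these included, the median depths of neutrophils were 1257, 1129.5, 892 and 771 UMIs. At least 2 S phase genes were seen in 3.88%, 11.3%, 12.0% and 9.17% of thinned tumour cells, again lowest in WT IgG.

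Setting KO IgG against WT IgG asks what goes with loss of Asf1a in the tumour cells without PD-1 blockade. In tumour cells the replication genes were higher in KO IgG, and the mitotic genes as a sum were higher by less. The S phase sum was 1.81-fold higher (95% counting interval 1.66 to 1.99) and the mitotic sum 1.35-fold higher (1.26 to 1.45). Of the 34 genes, 33 had at least 20 UMIs in the 2 libraries together, and 18 of these were at least 1.5-fold higher and 0 at least 1.5-fold lower, beside 15.9% higher and 15.1% lower of all 9540 genes with that many UMIs. The median log2 ratio was 0.70, beside 0.04 over all genes. By phase, 10 of 13 S phase genes and 7 of 16 mitotic genes passed 1.5-fold higher, with medians of 1.12 and 0.38.

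Among the genes that load and move the replication fork, 8 of 9 were at least 1.5-fold higher in KO IgG. Mcm3, a subunit of the MCM helicase, stood at 21.2, 56.7, 58.2 and 51.1 CPM in the 4 libraries, so WT IgG was low and the other 3 were close together, with a log2 ratio of 1.46 (0.95 to 1.99) for KO IgG against WT IgG. Mcm2 (13.4, 30.4, 29.3 and 33.5 CPM) and Mcm5 (10.3, 26.3, 25.0 and 31.5 CPM), of the same helicase, had the same order of libraries at the low end. Mcm7 stood at 27.9, 47.9, 62.7 and 59.3 CPM, and Mcm4 at 17.6, 26.3, 38.8 and 23.2 CPM. Mcm6 differed least of the 6 subunits, at 41.4, 48.5, 53.9 and 52.6 CPM. Gins2, part of the active helicase at the fork, was at 8.79, 19.3, 20.1 and 29.9 CPM. Pcna, the sliding clamp, was at 59.5, 74.8, 105 and 92.3 CPM, and its partner Pclaf at 46.0, 65.4, 93.1 and 101 CPM. In these sums both were higher in the 2 KO libraries than in the 2 WT libraries. As means over cells WT anti-PD-1 was highest for both. Pcna was then at 49.5, 113, 82.6 and 57.9 CPM and Pclaf at 54.1, 119, 74.4 and 64.3 CPM. The means of Mcm3 were 32.2, 68.6, 54.0 and 27.6 CPM, so KO anti-PD-1 was its lowest library there.

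Genes of nucleotide supply differed less in this comparison. Rrm1, the large subunit of ribonucleotide reductase, passed 1.5-fold with 26.9, 40.3, 41.6 and 41.3 CPM. Rrm2, its small subunit, did not pass it as a sum (18.1, 23.4, 26.1 and 50 CPM), and neither did thymidylate synthase, Tyms (39.3, 34.5, 42.6 and 54.2 CPM). Without the cell with the most mitotic UMIs in each library both passed, with log2 ratios of 0.90 and 0.64. As means over cells neither did, at 0.38 and −0.52. The cyclin E gene Ccne2, which opens S phase, held 8, 4, 33 and 17 UMIs, with a log2 ratio of 1.49 (0.35 to 2.82). Ccne1 held 5, 3, 11 and 6 UMIs and was too sparse for a ratio.

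Among the mitotic genes, the cyclins and Cdk1 did not differ by 1.5-fold between KO IgG and WT IgG as sums (0 of 4). Cdk1, the kinase that drives entry into mitosis, stood at 52.8, 40.3, 40.9 and 89.7 CPM, and Ccnb2 at 55.9, 45.6, 47.2 and 52.6 CPM. Ccna2 held 35.2, 46.7, 37.7 and 54.2 CPM, and Ccnb1 23.8, 33.9, 30.0 and 61.9 CPM. As a mean over cells Ccnb1 did pass 1.5-fold, at 17.8 CPM in WT IgG and 33.7 CPM in KO IgG. Without the cell with the most mitotic UMIs in each library it passed as well, with a log2 ratio of 0.80. Of the kinases and their partners, 3 of 5 were higher as sums. Aurkb, the kinase that corrects chromosome attachment, held 8, 11, 39 and 41 UMIs, or 4.14, 6.43, 13.7 and 21.1 CPM, a log2 ratio of 1.73 (0.61 to 3.04) with few UMIs behind it. Its partner Birc5 (survivin) stood at 71.9, 85.9, 117 and 165 CPM and was higher in both KO libraries in these sums. As a mean over cells Birc5 was at 94.3, 128.9, 125.6 and 124.9 CPM, with WT anti-PD-1 highest. Tpx2, which activates Aurora A on the spindle, was at 30.5, 57.3, 54.3 and 50 CPM, with WT IgG alone low in the sum. Its mean over cells was lowest in KO anti-PD-1, at 35.0 CPM against 44.2 CPM in WT IgG. Aurka itself was at 9.83, 11.1, 11.3 and 20.6 CPM as a sum and Plk1 at 10.9, 9.93, 8.46 and 25.3 CPM. As means over cells, WT IgG and KO IgG held 3.18 and 12.0 CPM of Aurka and 11.0 and 4.32 CPM of Plk1. These 2 genes thus differed by over 1.5-fold there, in opposite directions.

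Of the chromosome and spindle genes, Top2a, which untangles sister DNA, stood at 54.8, 60.2, 103 and 125 CPM, and Cenpf, a kinetochore protein, at 42.4, 42.6, 74.4 and 101 CPM. In these sums both were higher in each KO library than in each WT library. As means over cells WT anti-PD-1 was the highest library for both. Top2a was then at 24.3, 66.5, 60.1 and 60.3 CPM and Cenpf at 21.0, 72.7, 62.8 and 65.2 CPM. Cenpa, the histone of the centromere, was at 65.7, 98.7, 109 and 126 CPM. Mki67, which coats mitotic chromosomes and gives the Ki-67 stain, was at 36.7, 41.5, 49.7 and 27.9 CPM, so its lowest library was KO anti-PD-1. Of the abundant genes, Stmn1, a destabiliser of microtubules, stood apart between genotypes at 233, 278, 658 and 563 CPM, a log2 ratio of 1.5 (1.35 to 1.65) for KO IgG against WT IgG. Tubb5 (464, 551, 559 and 787 CPM), Hmgb2 (401, 510.0, 597 and 664 CPM) and H2afz (1372, 1689, 1749.6 and 1811 CPM) did not differ by 1.5-fold here as sums. Without the cell with the most mitotic UMIs in each library Hmgb2 alone of these passed it, with a log2 ratio of 0.74.

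The size of the mitotic difference depended on single cells. Without the 1 cell with the most mitotic UMIs in each library the mitotic ratio was 1.73, without 5 such cells 3.72, and as a mean over cells, which gives each cell the same weight, 1.31. Over 20 thinnings its median was 1.37 with a range of 0.836 to 2.03. As a mean over cells the S phase ratio was 1.53 in place of 1.81. Under the 3 ways of weighting (sum, sum without 1 cell, mean over cells), 13 genes were at least 1.5-fold higher each time: Mcm2, Mcm3, Mcm5, Mcm7, Gins2, Pcna, Rrm1, Ccne2, Aurkb, Top2a, Cenpf, Cenpa and Stmn1. They were 8 of 13 S phase genes, 4 of 16 mitotic genes and 1 of 4 abundant genes. The share of all genes that would pass in all 3 ways is not given. The 2 libraries also differed in the mix of tumour sub-clusters, whose part in these ratios was not tested. The sub-cluster with the highest mitotic level held 2 cells of WT IgG against 26 of KO IgG, others held 3 and 47 or 1 and 29, and one held 24 and 3. Within the first of these the S phase level was 1408 and 1342 CPM in WT IgG and KO IgG, within the next 471 and 521 CPM, and within the last 381 and 245 CPM. In a sub-cluster of 38 and 52 cells it was 209.9 and 232 CPM. Other sub-clusters were higher in KO IgG. One of 27 and 31 cells held 549.9 and 843 CPM, and one of 9 and 8 cells 135 and 773 CPM. The rest, of 5 and 19, 3 and 3, and 1 and 29 cells, were lower in KO IgG. They held 208 and 115, 288 and 246, and 249.7 and 213 CPM.

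Setting KO anti-PD-1 against WT anti-PD-1 asks the same under PD-1 blockade. Summed over cells, the mitotic genes were 1.82-fold higher (1.70 to 1.95) and the S phase genes 1.27-fold higher (1.16 to 1.39) in KO anti-PD-1. Of 33 genes, 17 passed 1.5-fold higher and 0 lower, beside 12.3% higher and 18.4% lower of all genes, and the median log2 ratio was 0.62, beside −0.08 over all genes. The higher genes were mostly mitotic (11 of 16), with 5 of 13 S phase genes. Given equal weight per cell, the mitotic ratio was 0.988 and the S phase ratio 0.690, so the direction turned, and over 20 thinnings the mitotic ratio had a median of 0.957 and a range of 0.763 to 1.24. The counts turned with it, to 4 genes higher and 9 lower as a mean over cells, for which no share of all genes is given. The plot of single genes in tumour cells shows both genotype comparisons.

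**Figure D3:**
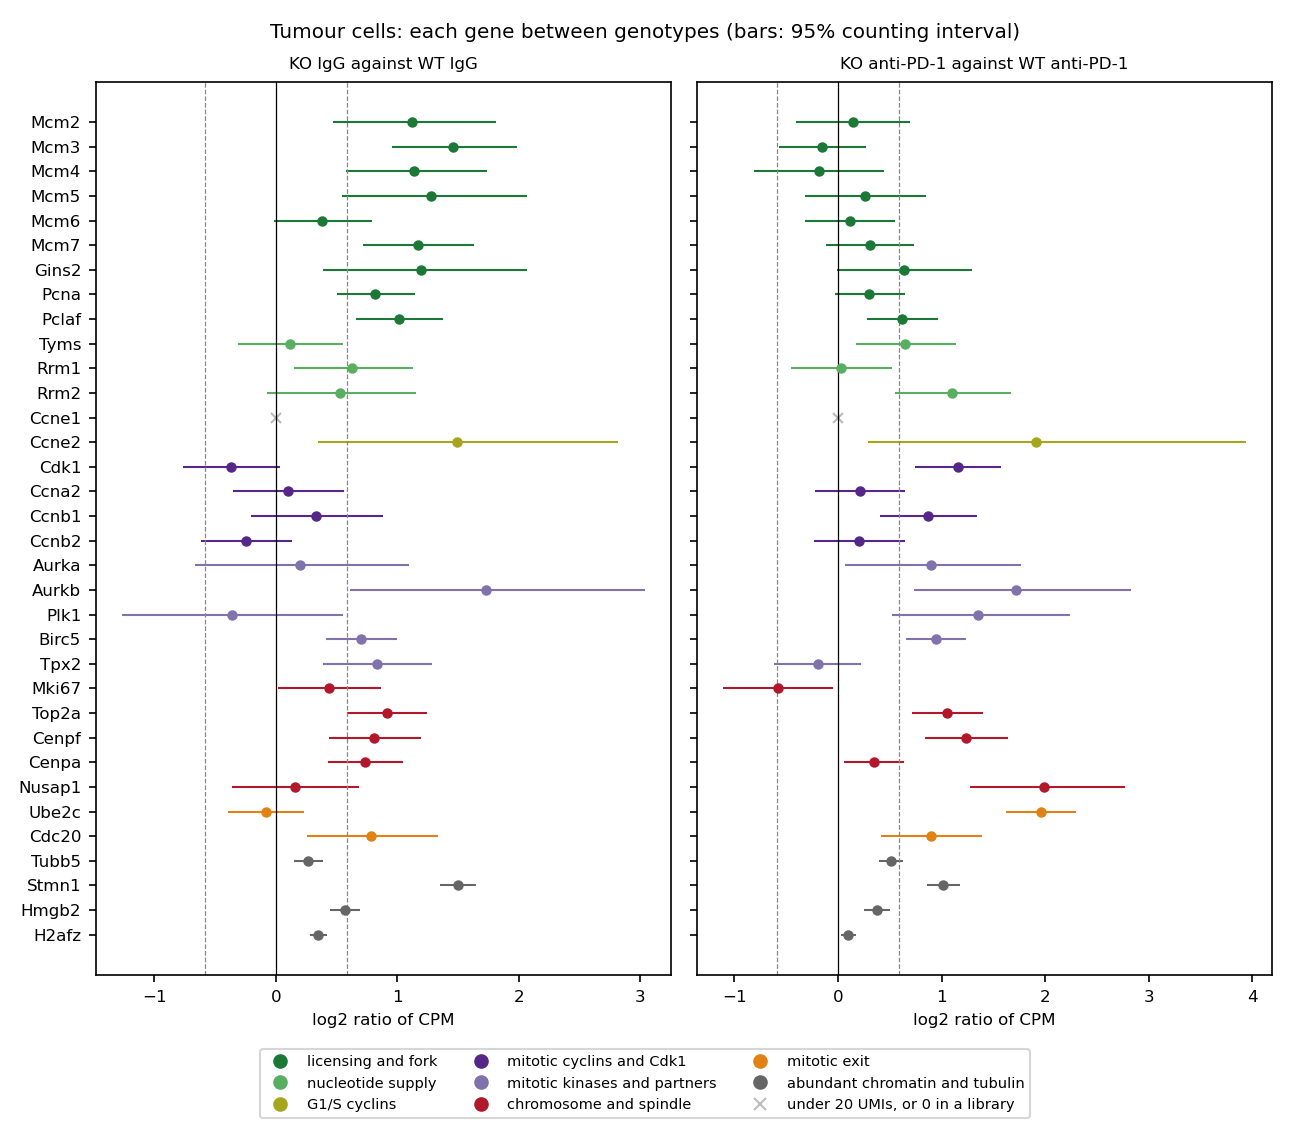
Log2 ratio of CPM in tumour cells for each of the 34 genes, coloured by role, KO IgG against WT IgG (left) and KO anti-PD-1 against WT anti-PD-1 (right), with 95% counting intervals and dashed lines at 1.5-fold. Crosses mark genes with too few UMIs and are not values. Replication genes lie to the right of 0 on the left side, and mitotic genes such as Ube2c and Nusap1 on the right side.

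The 3 largest log2 ratios under PD-1 blockade were those of Nusap1, Ube2c and Ccne2, the last at 1.91 (0.29 to 3.94) from 4 and 17 UMIs. Ube2c, which tags cyclin B for destruction, was at 75.0, 53.2, 70.8 and 206 CPM, so KO anti-PD-1 alone was high, with a log2 ratio of 1.96 (1.62 to 2.30). As a mean over cells the log2 ratio of Ube2c was 0.05. Nusap1, a spindle microtubule protein, was at 26.9, 11.7, 30.0 and 46.4 CPM, with WT anti-PD-1 alone low, a log2 ratio of 1.99 (1.28 to 2.77) that was 1.84 as a mean over cells. Cdc20, the activator of the anaphase-promoting complex, was at 21.7, 31.5, 37.4 and 58.8 CPM. In the 3 ways of weighting, Aurkb, Nusap1, Cdc20 and Stmn1 were at least 1.5-fold higher in KO anti-PD-1 each time. Mki67 went the other way, with a log2 ratio of −0.57 (−1.11 to −0.04) in the sum and −1.44 as a mean over cells. None of the 9 fork genes was at least 1.5-fold higher in all 3.

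**Figure D4:**
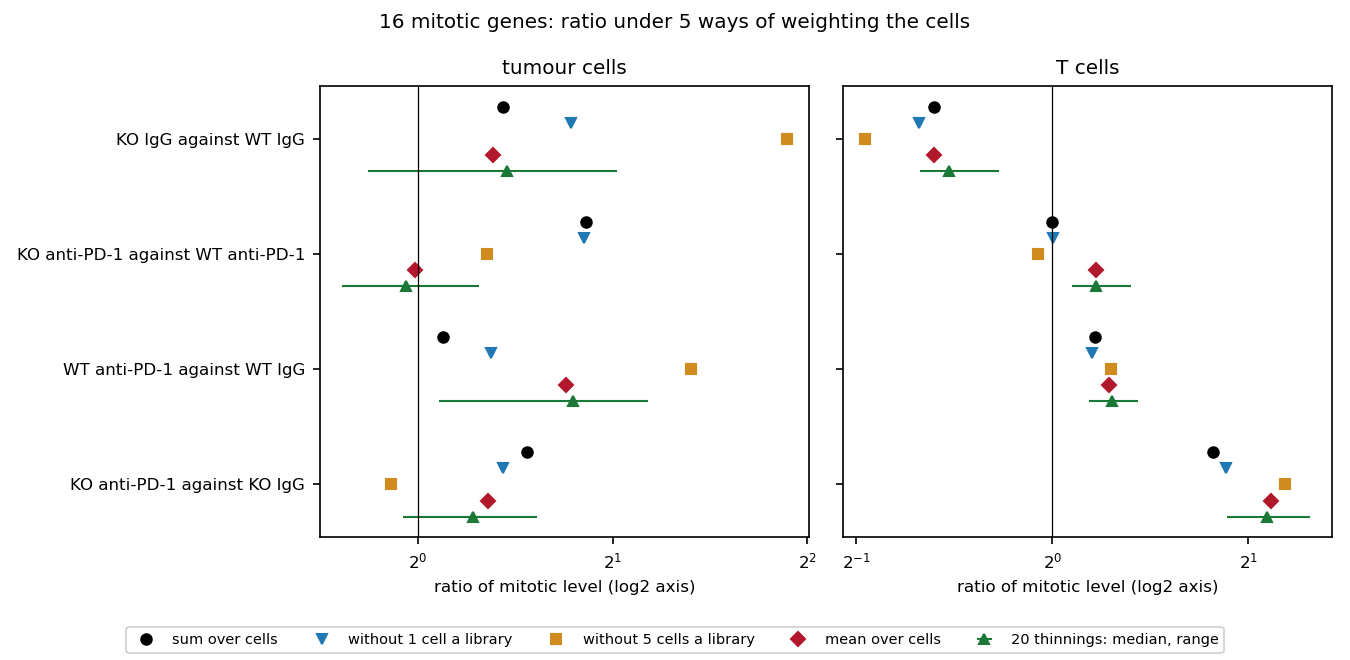
Ratio of the 16 mitotic genes (log2 axis) in 4 comparisons, in tumour cells (left) and T cells (right), under 5 ways of weighting the cells: the sum over cells, the sum without 1 or 5 cells per library, the mean over cells, and 20 thinnings (median, bar from lowest to highest). In tumour cells KO anti-PD-1 against WT anti-PD-1 lay at 1.82 as a sum and 0.988 as a mean over cells, while in T cells KO IgG against WT IgG stayed below 1 and KO anti-PD-1 against KO IgG above 1.

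The antibody comparisons within each genotype asked how tumour cells differed after PD-1 blockade. These comparisons share libraries with those between genotypes, so a low WT IgG or WT anti-PD-1 library enters more than 1 of them. In WT anti-PD-1 against WT IgG, the S phase sum was 1.48-fold higher (1.33 to 1.64) and the mitotic sum 1.09-fold higher (1.01 to 1.19). Of 31 genes, 7 passed 1.5-fold higher and 1 lower, beside 8.37% and 9.64% of all genes, with a median log2 ratio of 0.33 beside 0.00. The higher genes were Mcm2, Mcm3, Mcm5, Mcm7 and Gins2 of the fork, with Tpx2 and Cenpa, and the lower gene was Nusap1 at −1.20 (−2.03 to −0.43). As means over cells, 19 genes were higher and 1 lower, the mitotic ratio was 1.70 and the S phase ratio 1.89. The shares of all genes above are for sums, and none is given for means over cells.

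In KO anti-PD-1 against KO IgG, the mitotic sum was 1.47-fold higher (1.39 to 1.56) and the S phase sum 1.03-fold (0.958 to 1.11). Of 33 genes, 9 passed 1.5-fold higher and 2 lower, beside 9.65% and 17.9% of all genes, with a median log2 ratio of 0.27 beside −0.10. Plk1, the Polo-like kinase, was higher by a log2 ratio of 1.58, Ube2c by 1.54 (1.29 to 1.79) and Rrm2 by 0.94, and these 3 were at least 1.5-fold higher in all 3 ways of weighting. Mki67 at −0.84 (−1.32 to −0.37) and Mcm4 at −0.74 (−1.27 to −0.23) were lower in all 3. The mitotic ratio was 1.28 as a mean over cells and 0.909 without 5 cells per library, so its direction rested on those cells. The 5 cells are a larger part of the tumour cells in KO anti-PD-1 (134 cells) than in KO IgG (218 cells).

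A wider list of 111 other cell cycle genes, in 11 roles, was read in tumour cells. In KO IgG against WT IgG, 52 of 101 genes with enough UMIs were at least 1.5-fold higher and 3 lower, beside 15.9% and 15.1% of all genes, with a median log2 ratio of 0.62. Genes that rebuild chromatin behind the fork were higher in 5 of 6 cases (Uhrf1, Dnmt1, Hells, Chaf1a and Asf1b), origin factors in 7 of 10, and checkpoint and kinetochore genes in 9 of 13. The largest differences were Cenpk, a kinetochore gene, at 2.45, Chaf1a, the large subunit of the chromatin assembly factor, at 2.32 and the origin kinase Cdc7 at 1.95. Chaf1a held 6, 17, 44 and 28 UMIs, Cenpk 5, 18, 40 and 32 UMIs and Cdc7 3, 8, 17 and 6 UMIs, so WT IgG was the lowest library each time. Asf1b, the paralog of the deleted chaperone and a gene of dividing cells, was at 4.14, 7.60, 11.3 and 25.3 CPM. The lowest ratios were those of the Cdk inhibitor Cdkn2c at −0.83, the retinoblastoma gene Rb1 at −0.76 and the cyclin gene Ccnd2 at −0.61.

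Counts in the wider list were 29 higher and 9 lower of 97 in KO anti-PD-1 against WT anti-PD-1, beside 12.3% and 18.4% of all genes, with a median of 0.37. Asf1b at 1.73 and the origin factor Cdc45 at 1.61 were highest, and the 3 lowest were Rb1 at −1.50, the Cdc7 partner Dbf4 at −1.18 and the checkpoint kinase Bub1 at −1.11. For WT anti-PD-1 against WT IgG, 28 of 92 were higher and 3 lower, beside 8.37% and 9.64% of all genes (median 0.36). Cenpk at 2.02, Chaf1a at 1.68 and Bub1 at 1.48 were highest, and Cdc25b, a phosphatase that activates Cdk1, at −0.82, the cytokinesis gene Prc1 at −0.75 and Cdkn2c at −0.65 lowest. For KO anti-PD-1 against KO IgG, 13 of 105 were higher and 10 lower, beside 9.65% and 17.9% of all genes (median 0.05), so the share that was higher was near that of all genes. There the kinase Melk at 1.33, Asf1b at 1.16 and Cdkn2c at 1.00 were highest, and the kinetochore gene Knl1 at −0.97, Cdc7 at −0.95 and the Cdk inhibitor Cdkn1b at −0.85 lowest. Of the inhibitors, Cdkn1a (p21) was at 58.4, 74.2, 92.7 and 124 CPM and Cdkn2a at 491, 597, 839 and 647 CPM. As sums over cells, both were higher in each KO library than in each WT library.

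In T cells the genotypes differed in the opposite direction under IgG. The mitotic sum of KO IgG was 0.658 (0.606 to 0.714) of that of WT IgG, and the S phase sum 0.880 (0.815 to 0.950). All 34 genes had enough UMIs, and 11 were at least 1.5-fold lower and 0 higher, beside 5.40% lower and 8.36% higher of all genes. The median log2 ratio was −0.33, beside 0.08 over all genes. Of the mitotic genes, 8 of 16 were lower. The abundant genes Tubb5, Stmn1, Hmgb2 and H2afz were each at slightly lower levels in KO IgG, and none passed 1.5-fold.

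Ccnb1, cyclin B1, was at 9.81, 8.59, 3.24 and 12.5 CPM in T cells, so KO IgG alone was low, with a log2 ratio of −1.60 (−3.11 to −0.37). Ube2c was at 49.2, 46.9, 22.7 and 59.0 CPM, Cdk1 at 27.1, 31.7, 13.5 and 29.5 CPM and Cenpf at 37.3, 34.4, 20 and 33.0 CPM, with the same low library. Top2a was at 146, 165, 85.4 and 121 CPM, and Mki67 at 87.8, 99.1, 60.6 and 67.0 CPM. For both the 2 KO libraries were below the 2 WT libraries in these sums. As means over cells KO anti-PD-1 was not below WT IgG, at 86.8 and 80.2 CPM for Top2a and 52.5 and 52.1 CPM for Mki67. Of the S phase genes, Tyms (33.8, 27.1, 19.5 and 36.5 CPM), Rrm2 (31.3, 35.7, 17.3 and 38.5 CPM) and Gins2 (8.14, 7.93, 4.87 and 14.5 CPM) were at least 1.5-fold lower. The helicase subunits did not pass it. Mcm3 was at 40.5, 43.4, 40.5 and 52.0 CPM, and Mcm6 at 59.9, 72.0, 57.3 and 79.5 CPM.

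KO anti-PD-1 against KO IgG gave the largest difference in T cells. The mitotic sum was 1.76-fold higher (1.61 to 1.93) and the S phase sum 1.35-fold higher (1.24 to 1.47). Of 32 genes, 18 passed 1.5-fold higher and 0 lower, beside 11.5% and 10.3% of all genes, with a median log2 ratio of 0.72 beside 0.03, and 12 of 15 mitotic genes were among them. Ccnb1 was higher by a log2 ratio of 1.95, Cdc20 by 1.58, Ube2c by 1.38 and Ccnb2 by 1.34. Birc5 was at 58.4, 76.4, 49.2 and 106 CPM, and Stmn1 at 228, 272, 188 and 335 CPM. Mki67 differed least of the chromosome genes, at 0.15. All 18 stayed at least 1.5-fold higher in the 3 ways of weighting, and the mean over cells gave 25 genes higher and a mitotic ratio of 2.16. No share of all genes is given for these other weightings.

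**Figure D5:**
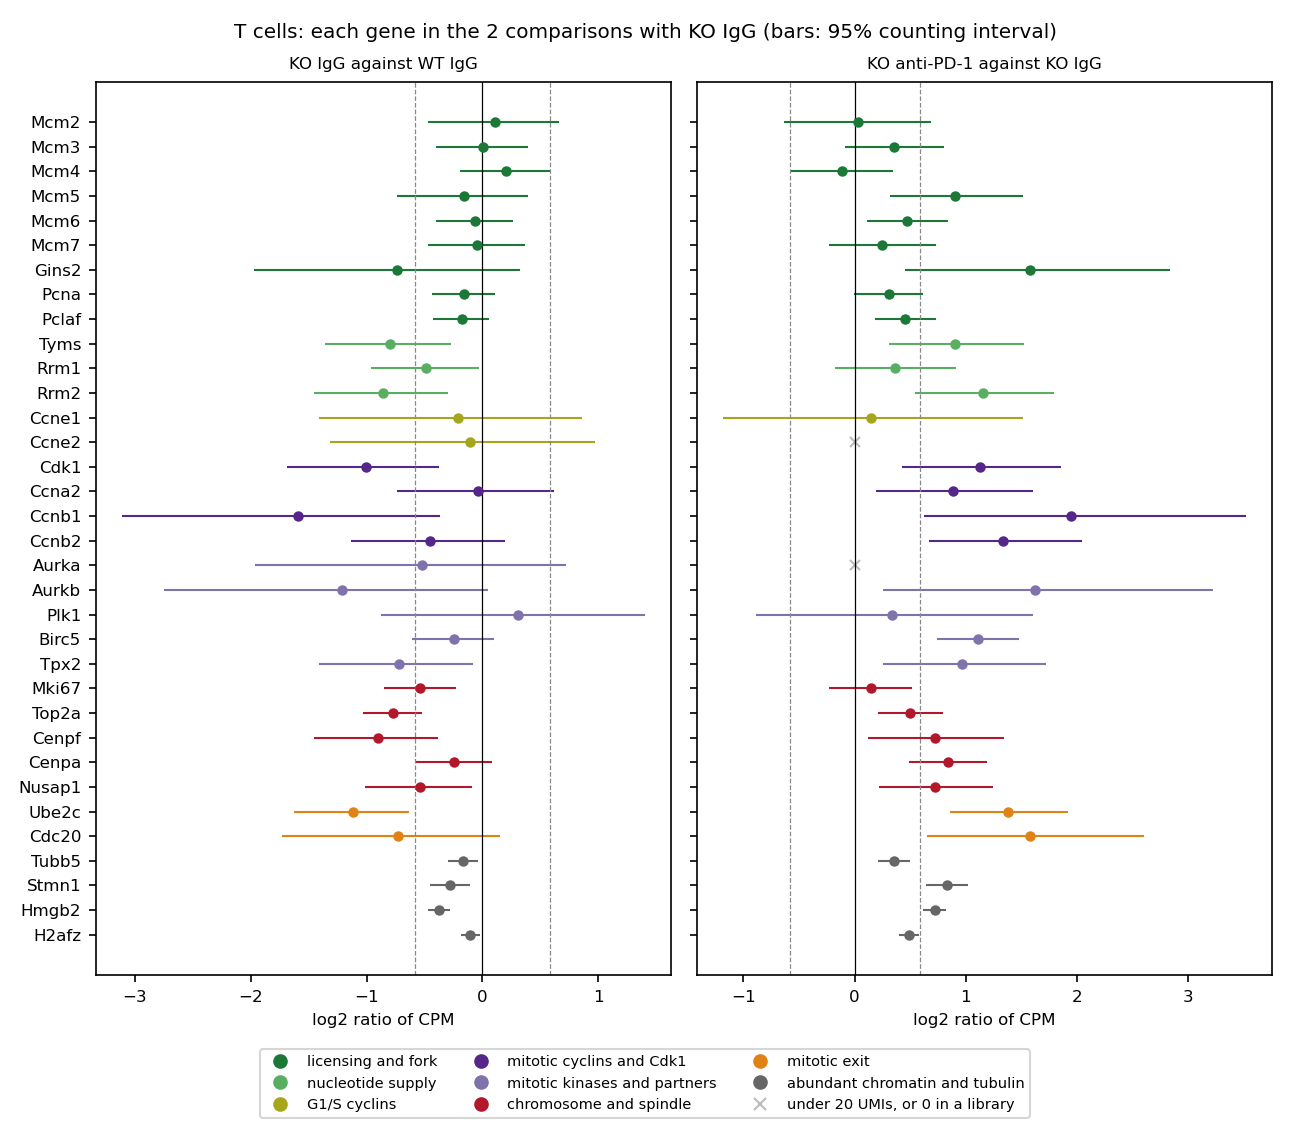
Log2 ratio of CPM in T cells for each of the 34 genes, coloured by role, KO IgG against WT IgG (left) and KO anti-PD-1 against KO IgG (right), with 95% counting intervals and dashed lines at 1.5-fold. Crosses mark genes with too few UMIs and are not values. Both sides share the KO IgG library, whose low level puts points left of 0 on the left and right of 0 on the right.

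The other comparisons in T cells were smaller. WT anti-PD-1 against WT IgG gave a mitotic ratio of 1.16 (1.11 to 1.22), with 1 of 34 genes, Plk1, at least 1.5-fold higher and 0 lower, beside 6.57% and 3.50% of all genes. KO anti-PD-1 against WT anti-PD-1 gave 0.999 (0.938 to 1.06), with Mcm5, Gins2 and Cdc20 at least 1.5-fold higher and 0 lower, beside 8.97% and 9.02%. As a mean over cells the latter ratio was 1.17, with 13 genes higher and no share of all genes to set beside them. In the wider list, 27 of 104 genes were lower and 1 higher in T cells of KO IgG against WT IgG, beside 5.40% and 8.36% of all genes. In KO anti-PD-1 against KO IgG, 29 of 93 were higher and 3 lower, beside 11.5% and 10.3%.

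The mix of T cell subsets differed between the libraries, and its part in the T cell ratios was not tested. The class named CD8 T cells made up 14.9%, 34%, 6.71% and 13.3% of the T cells, naive T cells 35.2%, 21.6%, 36.3% and 8.01%, and regulatory T cells 8.91%, 11.1%, 9.12% and 14.8%. T cells without a subset name made up 31.2%, 25.7%, 41.3% and 51.5%, and gave 26.4%, 34%, 44.8% and 57.1% of the mitotic UMIs of T cells. The CD8 class is not the share of cells with CD8, since Cd8a or Cd8b1 was seen in 32.0% to 48.9% of thinned T cells with fewer than 2 mitotic genes. Within CD8 T cells, KO anti-PD-1 against KO IgG was 0.933 (0.788 to 1.11), and within naive T cells 1.16 (0.640 to 2.01). T cells without a subset name held 440, 825, 374 and 711 CPM. As a mean over cells the CD8 ratio was 1.43, and CD8 T cells of KO IgG were 67 in number, with 26.9% of their mitotic UMIs in 1 cell.

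The lowest level of mitotic genes in CD8 T cells was that of WT anti-PD-1, the library in which these cells were most numerous, with 656 cells against 252, 67 and 139. WT anti-PD-1 against WT IgG was 0.571 (0.527 to 0.618), with 13 of 31 genes at least 1.5-fold lower and 0 higher, beside 7.89% and 8.99% of all genes. KO anti-PD-1 against WT anti-PD-1 was 1.54 (1.37 to 1.72), with 16 of 30 genes higher and 0 lower, beside 11.6% and 20.7%. Top2a was at 396, 227, 359 and 274 CPM, Mki67 at 245, 141, 210 and 155 CPM and Birc5 at 162, 100.4, 247 and 191 CPM. Of the S phase genes, Pclaf was at 287, 182, 427 and 325 CPM, with WT anti-PD-1 lowest, while Pcna (114, 118, 112 and 126 CPM) and Mcm6 (93.6, 107, 97.3 and 112 CPM) differed little. Without the cell with the most mitotic UMIs in each library the first ratio was 0.587 and the second 1.51, and as means over cells 0.616 and 1.63. Thinned to 1000 UMIs, 9.81%, 6.59%, 9.43% and 13% of CD8 T cells showed at least 2 mitotic genes.

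Regulatory T cells had lower levels in both KO libraries. Their mitotic ratio was 0.282 (0.210 to 0.373) for KO IgG against WT IgG, with 20 of 23 genes at least 1.5-fold lower and 0 higher, beside 16.5% lower and 19.8% higher of all genes. Under the antibody, KO against WT gave 0.493 (0.401 to 0.602), with 13 of 23 lower and 0 higher, beside 16.4% and 13.7%. Top2a was at 417, 212, 89.1 and 82.8 CPM, Mki67 at 241, 201, 188 and 71.7 CPM and Cenpa at 188, 245, 139 and 166 CPM. Pclaf was at 299.6, 301, 39.6 and 77.3 CPM, Pcna at 146, 189, 29.7 and 93.8 CPM and Mcm6 at 120.4, 150.5, 89.1 and 93.8 CPM, and KO IgG was the lowest library for each of these S phase genes. There were 151, 215, 91 and 155 such cells, and KO IgG held 54 mitotic UMIs. As means over cells the 2 ratios were 0.524 and 0.946, so the second was near 1.

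T cells in which at least 2 mitotic genes were seen after thinning were also read for the CD8 coreceptor genes, which the count did not use. They were 3.39%, 4.65%, 2.59% and 6.66% of T cells, or 52, 76, 21 and 52 cells, after 158, 297, 186 and 268 shallower cells had been left out. Cd8a or Cd8b1 was seen in 40.4%, 57.9%, 33.3% and 44.2% of them and in 32.0%, 48.9%, 34.6% and 41.0% of the other T cells, a higher share in 3 libraries and a slightly lower one in KO IgG. Unthinned, 6.20%, 7.45%, 3.51% and 7.82% of T cells had at least 2 mitotic genes, at median depths of 2448.5, 2060.5, 1630 and 1586 UMIs.

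NK cells, the innate killer lymphocytes, had the highest mitotic level in WT IgG and the lowest in KO IgG. KO IgG against WT IgG was 0.266 (0.192 to 0.363), with 9 of 18 genes at least 1.5-fold lower and 0 higher, beside 8.72% lower and 11.0% higher of all genes. KO anti-PD-1 against KO IgG was 2.81 (2.03 to 3.95), with 8 of 16 genes higher and 0 lower, beside 8.46% and 16.1%. Of the genes with the most UMIs, Cenpa was at 74.6, 54.4, 35.6 and 72.2 CPM, Top2a at 55.7, 26.5, 21.8 and 47.1 CPM and Birc5 at 38.0, 9.28, 3.96 and 48.7 CPM. The S phase genes Pcna (77.2, 82.2, 59.4 and 86.4 CPM), Mcm6 (79.7, 73.0, 69.3 and 56.5 CPM) and Mcm3 (38.0, 26.5, 37.6 and 37.7 CPM) differed less, and the S phase ratios were 0.896 (0.724 to 1.11) and 1.51 (1.23 to 1.86). One cell gave 39.4% of the mitotic UMIs of NK cells in WT IgG, and without the top cell of each library the mitotic ratios were 0.399 (0.279 to 0.558) and 2.5 (1.77 to 3.59). In WT anti-PD-1, 9 of 314 NK cells had at least 2 mitotic genes at their full depth, and 0 of 300 after thinning, where 3 counts of the total give a limit of 1.00% on cells seen at 1000 UMIs.

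Type 2 dendritic cells, which present antigen to CD4 T cells, had the highest mitotic levels of the myeloid classes shown in that plot. No cluster was named as type 1 dendritic cells, and whether such cells lie in this class was not tested. KO IgG against WT IgG gave a mitotic ratio of 0.553 (0.485 to 0.631), with 15 of 29 genes at least 1.5-fold lower and 0 higher, beside 6.94% and 9.14% of all genes. KO anti-PD-1 against KO IgG gave 2.33 (2.05 to 2.64), with 20 of 32 genes higher and 0 lower, beside 7.13% and 12.8%. Top2a was at 71.5, 43.6, 30.1 and 53.7 CPM, Birc5 at 45.4, 28.9, 21.9 and 77.9 CPM and Cenpa at 40.3, 40.4, 37.2 and 53.1 CPM. Of the S phase genes, Pclaf was at 102, 57.8, 28.9 and 95.2 CPM, with KO IgG lowest, while Pcna (67.0, 80.9, 70.3 and 74.5 CPM) and Mcm4 (52.2, 37.3, 39.6 and 36.9 CPM) had other orders. As means over cells the 2 mitotic ratios were 0.744 and 1.79.

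Macrophages held 144, 99.1, 76.7 and 85.3 CPM of mitotic genes, and WT IgG was the highest library. KO IgG against WT IgG was 0.533 (0.464 to 0.612), with 13 of 29 genes at least 1.5-fold lower and 0 higher, beside 5.62% and 5.92% of all genes. Mki67 was at 24.2, 12.1, 12.1 and 6.73 CPM, Birc5 at 16.5, 8.74, 6.58 and 17.2 CPM and Cenpa at 27.8, 27.7, 20.5 and 23.4 CPM. Pcna held 56.7, 57.5, 56.4 and 55.4 CPM, close to each other in all 4 libraries, beside Mcm3 at 21.0, 19.0, 19.0 and 14.5 CPM and Mcm4 at 13.8, 14.1, 14.2 and 16.1 CPM. Monocytes held 45.7, 97.0, 50.2 and 63.5 CPM of mitotic genes, with 48.9% of the WT anti-PD-1 UMIs in 1 cell, and without the top cells their ratio of WT anti-PD-1 against WT IgG fell from 2.12 to 1.14 (0.764 to 1.72). Their leading genes were Cenpa (12.7, 20.5, 25.1 and 22.9 CPM), Mki67 and Ube2c among the mitotic ones and Pcna (62.6, 53.1, 46.3 and 53.8 CPM), Mcm4 and Mcm3 among the S phase ones. Migratory dendritic cells held 54.5, 50.6, 57.1 and 108 CPM, led by Cenpa, Top2a and Cdk1, and by Pcna, Mcm3 and Mcm6.

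In neutrophils, both sets were highest in KO anti-PD-1. KO anti-PD-1 against KO IgG gave a mitotic ratio of 2.06 (1.68 to 2.53) and an S phase ratio of 1.87 (1.56 to 2.25), with 13 of 18 genes at least 1.5-fold higher and 0 lower, beside 11.3% and 7.06% of all genes. Pclaf was at 5.65, 10.7, 6.23 and 23.9 CPM, Birc5 at 5.65, 12.7, 9.73 and 23.4 CPM, Top2a at 9.68, 19.5, 6.62 and 10.6 CPM and Cenpa at 18.6, 21.0, 14.4 and 27.6 CPM. The granule genes Camp (381, 660.0, 297 and 1024 CPM) and Ltf (102, 131, 76.3 and 175 CPM), made by neutrophils before they mature, had the same order of libraries, while Elane, of the earliest stage, was at 0 UMIs in all 4 and Mpo at 0, 0, 0 and 2 UMIs. The part of immature neutrophils in these levels was not tested.

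Plasma cells, which secrete antibody, held 232, 291, 486 and 112 CPM of mitotic genes in 147, 97, 102 and 71 cells. KO IgG against WT IgG was 2.10 (1.85 to 2.38), with 26 of 30 genes at least 1.5-fold higher and 0 lower, beside 18.2% and 9.18% of all genes, and KO anti-PD-1 against KO IgG was 0.231 (0.179 to 0.294), with 25 of 28 lower and 0 higher, beside 28.2% and 6.86%. Mki67 was at 55.4, 63.5, 102 and 17.7 CPM, Top2a at 50.3, 53.9, 96.1 and 11.8 CPM and Birc5 at 14.2, 25.5, 72.8 and 16.3 CPM. Pclaf was at 46.7, 38.0, 174 and 19.2 CPM, Rrm2 at 30.0, 26.9, 96.1 and 14.8 CPM and Pcna at 33.0, 23.5, 47.6 and 35.5 CPM, so KO IgG was the highest library for all 6. B cells held 116, 152, 316 and 188 CPM, with 47.7% of the KO IgG UMIs in 1 cell, and without the top cells KO IgG against WT IgG went from 2.72 to 1.63 (1.14 to 2.31). Their leading genes were Cenpa (59.3, 74.6, 84.1 and 62.8 CPM), Top2a (17.7, 11.2, 89.9 and 40.6 CPM) and Birc5, and Pcna, Mcm7 and Pclaf. Naive T cells were led by Cenpa (34.1, 46.2, 38.0 and 36.0 CPM), Top2a and Birc5, and by Pcna (63.7, 56.6, 75.9 and 78.1 CPM), Mcm4 and Mcm6.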

How the data were processed

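Single cells of mouse lung were profiled with 10x 3′ v2 chemistry, 1 library per group. The authors deposited raw UMI counts per gene and cell, which per the file headers came from Cell Ranger 3.0.0. A human build, hg19, is named in the submitters' processing notes, while the gene identifiers are mouse, so the build is not established and only RefSeq GRCm38.p6 promoter windows carry coordinates. The one barcode list used here has 6074 entries and fits WT IgG alone, so barcodes shared between libraries were not counted. Cells with under 200 genes (9 to 19 per library), over 10% mitochondrial UMIs (320 to 398) or a doublet score over 0.25 (74 to 101) were left out. The score limit was set after an automatic one had called 75, 101, 2 and 0 doublets.

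Cells were clustered with scanpy 1.11.5 (2000 variable genes, 30 components, 15 neighbours, resolution 1) without the 34 genes and the wider list. Clusters were named from 28 marker lists, 5 of them for T cell subsets, by the mean log2 ratio of a list to other cells. A name needed a score of at least 1, a gap of 0.5 to the next class and 3 detected markers. The 10 leading genes also could not hold more markers of another class. The unnamed T cell sub-clusters fell short on the score. T cell subsets were also clustered without 355 genes that varied with the 34 genes over T cells, and without histone genes, a choice made after seeing the data. Counts were summed per class and library and given per 1000000 UMIs (CPM). Ratios carry exact conditional Poisson 95% intervals, levels exact Poisson intervals, and shares exact Clopper-Pearson intervals. A gene entered counts with at least 20 UMIs in the 2 libraries together and was called at 1.5-fold. Shares of all genes are for sums over cells, so counts under other weightings have no such share beside them. No p-value was computed, since a group has 1 library.

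All 34 genes were to be named, by role in tumour and T cells and by the 3 genes with most UMIs of each phase elsewhere, with the 3 highest and 3 lowest of the wider list. Some items that this rule or the samples' description would name are not reported here. The members and lists were chosen with earlier results of these data known. Alternatives were a 5% mitochondrial limit, no doublet removal, all variable genes, leaving out cells, means over cells, thinning, subtracting the neutrophil level, TMM (edgeR 4.0.16) and size factors of DESeq2 1.42.0. Leaving out 5 cells, 20 repeated thinnings and the other classes' weightings were added after seeing the data. Ratios were tested on simulated sums with independent Poisson counts for each gene, for KO IgG against WT IgG. There 9.21% of unchanged genes in tumour cells and 9.58% in T cells were called at 1.5-fold. The simulation had no single cells, so it did not cover RNA that sits in few cells.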

Additional observations from a re-analysis of the deposited data

Results flagged for a closer look

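In several immune cell types the mitotic genes differed between libraries in the direction opposite to tumour cells, and these differences between cell types were not tested. For KO IgG against WT IgG the ratio was 0.658 in T cells, 0.266 in NK cells and 0.533 in macrophages, beside 1.35 in tumour cells. For KO anti-PD-1 against WT anti-PD-1 it was 0.861 in macrophages and 0.655 in monocytes, beside 1.82 in tumour cells, and the tumour value turned to 0.988 as a mean over cells. Without the top cell of each library these were 0.996 (0.850 to 1.17) in macrophages and 1.12 (0.787 to 1.60) in monocytes, so the opposite direction rested on single cells there. For WT anti-PD-1 against WT IgG it was 0.357 in NK cells and 0.689 in macrophages, beside 1.09 in tumour cells.

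Some classes too small for a ratio held more mitotic RNA, in CPM, than neutrophils of the same library. CD4 T cells held 561, 276, 908 and 255 CPM in the 4 libraries, from 97, 100, 32 and 112 cells. Alveolar macrophages held 441 CPM in WT anti-PD-1 and 419 CPM in KO IgG, and plasmacytoid dendritic cells 157 CPM in WT IgG. Basophils held 2662 CPM in KO anti-PD-1, from 60 UMIs in 10 cells. Fibroblasts, only 30 cells over all 4 libraries, held 249.7 CPM in WT IgG, 213 CPM in WT anti-PD-1 and 399 CPM in KO IgG.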

How the results depend on the processing

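The summed mitotic ratio of tumour cells depended on how cells were weighted. For KO IgG against WT IgG it was 1.73 without 1 cell per library, 3.72 without 5 cells and 1.61 after thinning to 1000 UMIs. For KO anti-PD-1 against WT anti-PD-1 it was 2.12 with a 5% mitochondrial limit, 1.97 without doublet removal, 1.97 with all variable genes, 1.28 without 5 cells, 0.988 as a mean over cells and 0.827 after thinning, so the last 2 turned its direction. For WT anti-PD-1 against WT IgG it was 1.30 without 1 cell, 2.64 without 5 cells, 1.70 as a mean over cells and 2.05 after thinning. For KO anti-PD-1 against KO IgG it was 1.59 with a 5% mitochondrial limit, 1.36 without 1 cell, 0.909 without 5 cells, 1.28 as a mean over cells, 1.05 after thinning and 1.58 with DESeq2 size factors. In T cells KO IgG against WT IgG was 0.515 without 5 cells, 0.726 after thinning and 0.604 with TMM. KO anti-PD-1 against WT anti-PD-1 was 1.17 as a mean over cells and 1.19 after thinning. WT anti-PD-1 against WT IgG was 1.07 with all variable genes, 1.23 without 5 cells, 1.27 after thinning, and 1.08 with TMM and 1.08 with DESeq2. KO anti-PD-1 against KO IgG was 2.27 without 5 cells, 2.16 as a mean over cells and 2.10 after thinning. The cause was not tested. The other 68 values for these 8 ratios stayed within their counting interval. No paired analysis was possible because each group has 1 library. The tumour ratios rest on 107 to 218 cells per library.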
